A study of Mus musculus with 18 samples.

Results

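The genes of oxidative phosphorylation were followed through the transcriptome of bone marrow-derived macrophages (BMDMs). Members were the protein-coding genes of the deposited count table whose symbol names a subunit of complex I (Nduf), complex II (Sdh), complex III (Uqcr), complex IV (Cox4 to Cox8) or ATP synthase (Atp5), or a gene of mitochondrial DNA (mt-). The rule found 106 of the 50600 genes in the table, of which 13 lie on the mitochondrial chromosome and 93 on nuclear chromosomes. The nuclear members comprised 38 genes of complex I, 4 of complex II, 8 of complex III, 18 of complex IV, 17 of ATP synthase and 8 Ndufaf genes, which the symbol rule also picks up and which encode assembly factors of complex I rather than subunits. The rule used symbols alone and no measured value.

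Bone marrow of WT (C57BL/6) or IRF5 KO animals was differentiated with GM-CSF for 8 days. Cells were either left unstimulated, or pretreated for 1 h with DMSO or with 3.5 μM defactinib, an inhibitor of the kinases FAK and PYK2, and then stimulated with 100 ng/ml LPS for 2 h. Each genotype thus has an unstimulated, an LPS DMSO and an LPS defactinib group, which makes 6 groups of 3 libraries. The sample labels give DMSO for the unstimulated cells and the column names call them untreated, and no unstimulated group received defactinib.

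Oxidative phosphorylation passes electrons from NADH and succinate to oxygen along the inner mitochondrial membrane. Complex I takes them from NADH, complex II from succinate, complex III hands them to cytochrome c, and complex IV reduces oxygen. Complexes I, III and IV pump protons, and ATP synthase (complex V) lets the protons flow back to make ATP. Complex II is wholly encoded in the nucleus, whereas the other complexes mix nuclear subunits, made on cytosolic ribosomes and imported, with subunits transcribed and translated inside the organelle. The mt- genes encode subunits of complex I (mt-Nd1 to mt-Nd6 and mt-Nd4l), complex III (mt-Cytb), complex IV (mt-Co1 to mt-Co3) and ATP synthase (mt-Atp6 and mt-Atp8). They are transcribed as long polycistronic RNAs from both strands by a polymerase of their own, and mt-Nd6 is the only protein-coding gene on its strand. Macrophages that respond to LPS are known to shift towards glycolysis, with a role for succinate oxidation and for complex I in their cytokine response.

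What can be read from the mt- genes depends on copies of mitochondrial DNA in the nuclear genome, because only uniquely mapped read pairs were counted. On chromosome 1 of mm10, GENCODE annotates 7 pseudogenes between 24611535 and 24616197 that copy mt-Nd4, mt-Nd4l, mt-Nd3, mt-Co3, mt-Atp6, mt-Co2 and the end of mt-Co1. The copy of mt-Co2, Gm28661, matched at 681 of 681 compared bases, the copy of mt-Atp6, Gm10925, at 678 of 678, and the copy of mt-Co3, Gm28437, at 783 of 783. The copy of mt-Nd3, Gm28438, matched at 344 of 345, with the single substitution T3C counted from the first base of the gene, and the copy of mt-Co1, Gm29216, at 486 of 492. The 60 bases at the 5′ end of both pairs show how little there is to tell a read of one from a read of the other. The substituted base is in capitals, mt-Nd3 lies at chrM:9459-9806 and mt-Co2 at chrM:7013-7696, both on the plus strand.
mt-Nd3: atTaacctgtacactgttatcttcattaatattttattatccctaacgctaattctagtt
Gm28438: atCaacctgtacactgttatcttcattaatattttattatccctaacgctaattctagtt
mt-Co2: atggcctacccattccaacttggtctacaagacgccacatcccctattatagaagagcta
Gm28661: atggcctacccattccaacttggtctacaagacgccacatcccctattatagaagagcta

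Split into windows of 50 bases, 100% of mt-Co2, 99.9% of mt-Co3, 99.5% of mt-Atp6, 98.8% of mt-Nd4l and 98.0% of mt-Nd3 occurred unchanged in a transcript of another annotated gene. The share was 62.2% in mt-Nd4, 51.1% in mt-Co1, 8.19% in mt-Nd2 and 7.61% in mt-Nd5, and no window of mt-Nd1, mt-Cytb, mt-Nd6 or mt-Atp8 was held elsewhere. mt-Atp8 has no annotated copy, although it lies between mt-Co2 and mt-Atp6, which both have one. The search covered annotated transcripts only, so a copy of mt-Atp8 outside the annotation was not looked for. mt-Atp6 was counted at 1014 to 2502 read pairs per library and its copy Gm10925 at 1687 to 4072, so that more pairs were assigned to the copy than to the gene. mt-Co2 and its copy were counted at 518 to 1612 and 576 to 1818 pairs. The levels of the 5 genes above 97% are therefore those of the few pairs that could be placed, and their order relative to other genes is not read here.

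The level per length of the mt- genes spanned a wide range. mt-Co1 was highest at 2097 CPM per kb, as the mean over 18 libraries, followed by mt-Nd1 at 1106, mt-Cytb at 956, mt-Nd2 at 490, mt-Nd5 at 457 and mt-Nd4 at 274. CPM here is the count relative to the TMM-scaled library size, and the length is that of all exons of the gene in the count table. The 5 genes with nearly complete copies lay between 8.60 (mt-Nd4l) and 46.9 (mt-Atp6), and mt-Atp8, the shortest member at 204 bases, was at 10.1. mt-Nd6, which has no annotated copy, was at 15.3 CPM per kb, below every other mt- gene that has at most 10% of its windows elsewhere apart from mt-Atp8. mt-Atp6 and mt-Atp8 overlap, as do mt-Nd4l and mt-Nd4, and mt-Nd5 and mt-Nd6 overlap on opposite strands. Counting was reverse stranded.

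**Figure D1:**
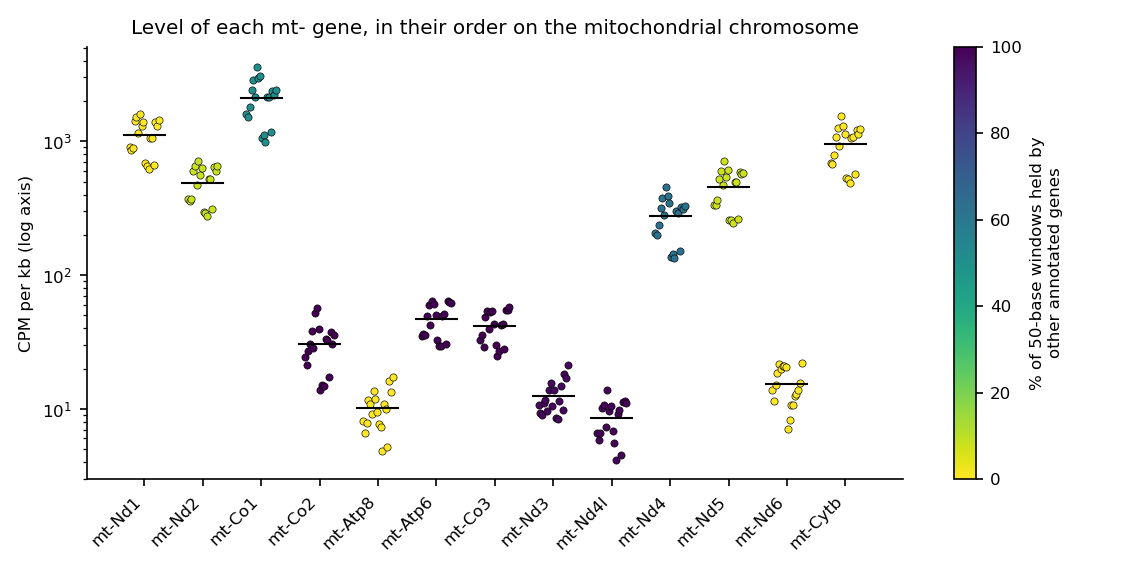
Level of the 13 mt- genes in CPM per kb on a log axis, in their order along the mitochondrial chromosome. Each point is 1 of 18 libraries, the line is their mean, and the colour gives the share of 50-base windows that other annotated genes hold. The 5 darkest genes, at 98.0% to 100%, all have means below 50, and mt-Co1, mt-Nd1 and mt-Cytb have the highest.

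Among nuclear members the highest levels per length were those of Cox8a at 360 CPM per kb, Cox6b1 at 327 and Cox4i1 at 280, all subunits of complex IV, and Atp5b at 318, the catalytic beta subunit of ATP synthase. Uqcr10 led complex III at 158 CPM per kb, Sdhd, a membrane anchor of complex II, led that complex at 155, and Ndufa1 led complex I at 138. The Ndufaf assembly factors were lower, with Ndufaf2 highest at 12.3 CPM per kb. These values divide by the length of all annotated exons, so genes with long or retained exons in the annotation, such as Ndufb2 at 5628 bases, come out low.

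Isoforms of complex IV subunits differed widely in level per length. Cox4i1 was at 280 CPM per kb and its alternative Cox4i2, with 8 read pairs over all libraries, at 0.0131. Cox6a1 stood at 228 CPM per kb against 0.374 for Cox6a2, and Cox6b1 at 327 against 0.815 for Cox6b2. Cox7a2 was at 129 CPM per kb and Cox7a2l, a factor of respiratory supercomplexes, at 157, whereas Cox7a1, the form of heart and skeletal muscle, was at 2.23. No read pair was counted for Cox8b, Cox8c or Cox7b2, or for Ndufa4l2, the partner of Ndufa4 (28.1 CPM per kb). Of the genes that encode the c subunit of ATP synthase, Atp5g3 was at 125 CPM per kb, Atp5g1 at 5.79 and Atp5g2 at 0.78. Cox4i2, Cox7b2, Cox8b, Cox8c and Ndufa4l2 did not pass the filter on low counts, which left 88 nuclear and 13 mt- members among the 15663 tested genes.

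Promoters are shown for 4 nuclear members whose changes are described next, as the 250 bases before and 50 after the gene start, read 5′ to 3′ on the strand of the gene from RefSeq (GRCm38.p6, the assembly of mm10). Capitals mark letters of 4 motifs searched on both strands, GCGCATGC (the core of the NRF1 site), CGGAAG (ETS factors such as GABP), AAGATGGC (YY1) and AAGGTCA (bound by ERR receptors). Overlapping matches of GCGCATGC and its reverse are run together. Ndufaf4 (chr4:24897833-24898132, plus strand) holds GCGCATGC and CGGAAG, Ndufa3 (chr7:3617123-3617422, plus) holds AAGATGGC, and Uqcrfs1 (chr13:30545267-30545566, minus) and Uqcr10 (chr11:4704295-4704594, minus) hold none of the 4.
Ndufaf4: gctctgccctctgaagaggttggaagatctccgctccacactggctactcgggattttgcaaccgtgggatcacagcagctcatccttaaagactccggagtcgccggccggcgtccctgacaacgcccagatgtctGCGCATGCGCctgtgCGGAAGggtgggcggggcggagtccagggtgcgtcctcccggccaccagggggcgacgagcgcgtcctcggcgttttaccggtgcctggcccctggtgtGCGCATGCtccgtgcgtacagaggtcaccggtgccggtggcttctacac
Ndufa3: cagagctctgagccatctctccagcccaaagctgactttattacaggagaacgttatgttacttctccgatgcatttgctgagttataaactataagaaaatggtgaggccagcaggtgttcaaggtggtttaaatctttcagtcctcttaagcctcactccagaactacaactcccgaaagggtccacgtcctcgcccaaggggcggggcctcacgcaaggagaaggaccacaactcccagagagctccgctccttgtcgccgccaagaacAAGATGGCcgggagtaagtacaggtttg
Uqcrfs1: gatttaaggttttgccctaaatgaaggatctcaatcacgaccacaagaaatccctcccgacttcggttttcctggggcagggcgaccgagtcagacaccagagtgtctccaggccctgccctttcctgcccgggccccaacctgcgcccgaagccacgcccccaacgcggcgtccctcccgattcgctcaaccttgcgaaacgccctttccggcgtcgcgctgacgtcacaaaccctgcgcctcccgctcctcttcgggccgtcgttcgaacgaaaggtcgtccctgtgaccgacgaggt
Uqcr10: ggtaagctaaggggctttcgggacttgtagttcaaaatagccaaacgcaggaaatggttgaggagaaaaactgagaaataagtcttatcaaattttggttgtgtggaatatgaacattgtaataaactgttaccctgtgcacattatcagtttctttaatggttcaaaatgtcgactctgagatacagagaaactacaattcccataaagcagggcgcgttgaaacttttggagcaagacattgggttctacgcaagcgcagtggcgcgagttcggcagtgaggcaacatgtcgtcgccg

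A promoter was found for 74 of the 93 nuclear members. GCGCATGC was present in 12 of them (16.2%), against 824 of 27025 genes with a promoter (3.05%). CGGAAG was present in 32 members (43.2%) and 18.8% of all genes, AAGATGGC in 10 (13.5%) and 3.19%, and AAGGTCA in 8 (10.8%) and 5.38%. These are counts of letters, with no matching of base composition and no test.

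Between 39282181 and 61949143 read pairs were counted per library. Irf5, the gene targeted in the knockout, was at 587, 606 and 650 CPM in unstimulated WT libraries and at 335, 397 and 364 CPM in unstimulated IRF5 KO libraries (log2 difference 0.75, adjusted p = 0.00492), and after LPS with DMSO at 434 to 475 in WT and 345 to 435 in IRF5 KO. After LPS with defactinib Irf5 was at 213, 234 and 379 CPM in WT and 353 to 392 in IRF5 KO, a log2 difference of -0.42 that goes against the labels (adjusted p = 0.0545). Irf5 counts thus separate the genotypes without stimulation and do not check the genotype labels of the LPS-stimulated libraries, and counts over the whole gene do not show which exons were removed. Ptk2b, which encodes PYK2, was at 162 to 172 CPM in WT LPS DMSO and 101 to 122 in WT LPS defactinib (log2 -0.62, adjusted p = 2.44e-05). In IRF5 KO it was at 153, 151 and 170 CPM with LPS and DMSO and at 151 to 166 with defactinib (0.01, adjusted p = 0.943). Macrophage markers were present (Lyz2 at 10452 CPM, Csf1r at 872, Adgre1 at 296), as were some markers listed for dendritic cells (Itgax at 2343, Zbtb46 at 57.4), while each of the 7 T, B and NK cell markers averaged at most 0.167 CPM. IRF5 KO LPS DMSO replicate 3 stood apart from replicates 1 and 2, with a chi-square per gene of 441 and 425 against them and 2.33 between them. In the other groups this value was 3.82 to 183 between replicates, so replicates 1 and 2 were the closest pair within any group. Whether they are independent cultures was not tested, and without replicate 3 the group rests on these 2 libraries. The noncoding RNA Gm26917 took 2.57% and 2.56% of the pairs in replicates 1 and 2 and 0.0125% in replicate 3. It took 1.06% to 4.15% in the 6 libraries with defactinib and at most 0.0154% in the WT LPS DMSO and unstimulated libraries. By this RNA replicates 1 and 2 resemble the libraries labelled defactinib and replicate 3 the libraries without it, whereas by Ptk2b none of the 3, and none of the IRF5 KO libraries with defactinib, was in the range of WT LPS defactinib. Another noncoding RNA, Gm42418, took 2.08% and 2.12% in replicates 1 and 2 and 0.485% in replicate 3. It took 1.27% to 2.09% in the libraries with defactinib, but also 1.44% in WT unstimulated replicate 3. Whether the labels of the LPS-stimulated IRF5 KO libraries are right was not tested, and every group name is used as labelled. The counts of members called in comparisons that use the IRF5 KO LPS DMSO libraries are therefore given with and without replicate 3. In bulk RNA, fewer cells of a type and less RNA per cell cannot be told apart.

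The mt- members together took 0.43% to 1.14% of the counted pairs in a library and the nuclear members 0.71% to 1.14%. The ratio of the 2 sums within a library does not depend on how libraries are scaled. Its log2 was -0.58, -0.59 and -0.44 in the unstimulated WT libraries, and -0.13, 0.23 and -0.30 after LPS with DMSO. All 3 stimulated libraries lay above the unstimulated ones. With defactinib the WT values were 0.16, -0.27 and 0.01, all within the range of WT LPS DMSO. In IRF5 KO libraries it was -1.10, -0.91 and -1.12 unstimulated, -0.56, -0.55 and -0.94 with LPS and DMSO, and -0.38, -0.48 and -0.39 with LPS and defactinib. The IRF5 KO libraries lay below the WT libraries of the same treatment in each of the 3 treatments with all 13 mt- members summed, which with defactinib was not so for the less copied genes alone.

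**Figure D2:**
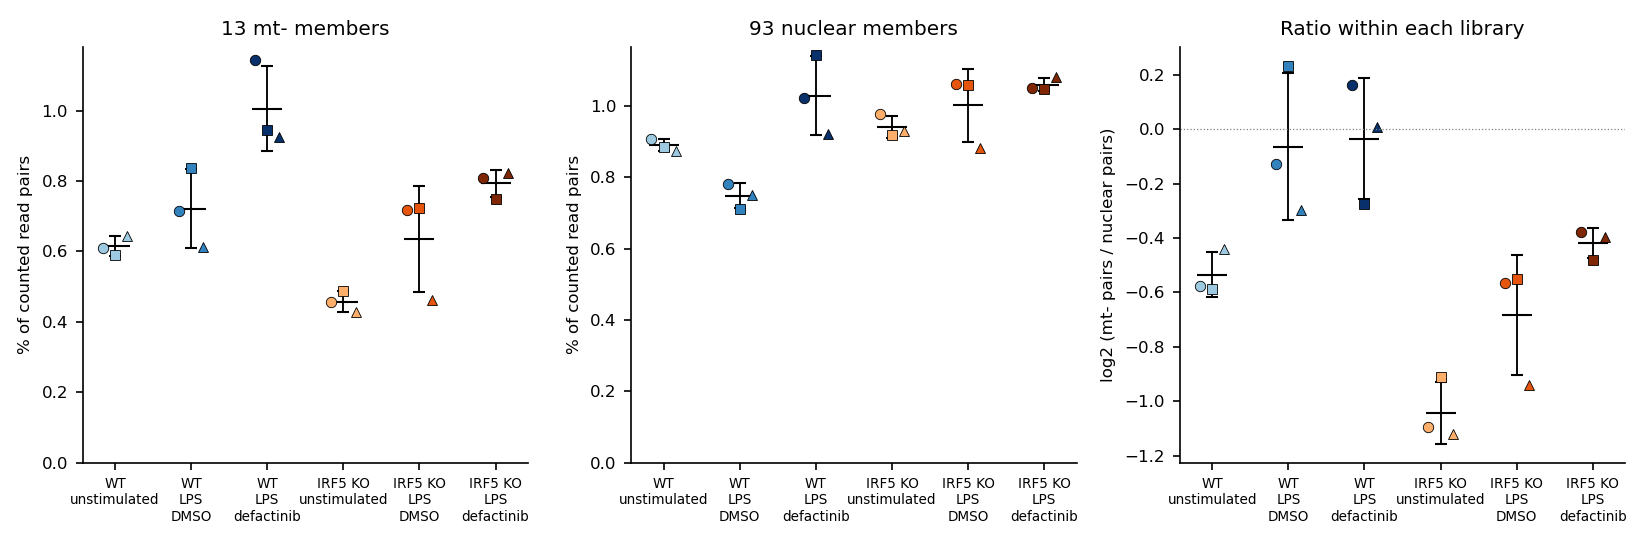
Share of counted read pairs on the 13 mt- members (left) and the 93 nuclear members (middle), in percent, and the log2 ratio of the 2 sums (right), for 6 groups. Circles, squares and triangles are replicates 1, 2 and 3, and bars give the mean and SD over 3 libraries. The unstimulated IRF5 KO libraries lie at a ratio of -1.12 to -0.91, and the triangle of IRF5 KO LPS DMSO lies among them at -0.94.

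Averaged over 3 libraries, the log2 ratio was -0.53 ± 0.08 (SD, n = 3) in WT unstimulated and -0.06 ± 0.27 in WT LPS DMSO, a 1.39-fold rise of mt- over nuclear counts. In IRF5 KO it went from -1.04 ± 0.11 to -0.68 ± 0.22, a 1.28-fold rise with overlapping libraries and a 1.40-fold rise with no overlap without replicate 3. Defactinib after LPS left it at -0.03 ± 0.22 in WT, 1.02-fold of the DMSO value with overlapping libraries. In IRF5 KO LPS defactinib it was -0.42 ± 0.06, 1.202-fold of the DMSO value, and 1.10-fold without replicate 3 of IRF5 KO LPS DMSO. WT exceeded IRF5 KO 1.42-fold in unstimulated cells, 1.54-fold after LPS with DMSO (1.41-fold without replicate 3) and 1.30-fold after LPS with defactinib. WT LPS defactinib against IRF5 KO LPS defactinib came to 0.38 on the log2 scale with all mt- genes and to 0.20 with only mt-Nd1, mt-Nd2, mt-Nd5, mt-Nd6 and mt-Cytb, the 5 genes under 10% copied other than mt-Atp8, which was left out because it lies between copied genes and overlaps mt-Atp6, an alternative chosen after seeing the data. With these 5 genes the libraries of the 2 genotypes overlapped, since WT LPS defactinib replicate 2 was at -1.43 and IRF5 KO replicates 1 and 3 at -1.34 and -1.36.

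The first comparison asks what 2 h of LPS does to these genes in WT cells. Of 13 mt- members, 9 were higher after LPS at a false discovery rate (FDR) below 0.05 and none was lower, with a median log2 fold change of 0.57 and a range of 0.16 (mt-Nd3) to 0.65 (mt-Nd2). Of 88 nuclear members, 3 were higher and 3 lower, with a median of 0.08. Over all tested genes 20.6% were higher and 21.2% lower, with a median of -0.0045. Without IRF5 KO LPS DMSO replicate 3, 12 mt- members were higher and 9 nuclear members higher and 4 lower, where 25.7% of all genes were higher and 27.1% lower. With a library of the comparison itself left out 2 to 9 mt- members were called. The fewest were 2 without WT LPS DMSO replicate 2 and 4 without WT unstimulated replicate 2, where 17.4% and 16.9% of all genes were higher. In a fit of only the 2 groups, 17 nuclear members were higher and 5 lower, where 30.8% and 32.1% of all genes were. mt-Nd1 was at 866, 818 and 857 CPM unstimulated and at 1354, 1458 and 1098 CPM with LPS, a log2 fold change of 0.62 (SE 0.15, adjusted p = 0.00315). mt-Co1 rose from 2535 ± 214 to 3851 ± 575 CPM (SD, n = 3) and mt-Cytb from 824 ± 64.9 to 1236 ± 188. mt-Nd6, on the other strand, moved alike, at 5.97 to 7.77 CPM unstimulated and 9.58 to 11.2 with LPS. Of the mt- genes under 10% copied, mt-Nd1, mt-Nd2, mt-Nd5, mt-Nd6 and mt-Cytb rose, with a median of 0.62 over these 5, and mt-Atp8 was at 0.50 with no call (adjusted p = 0.143), while the 5 above 97% copied had a median of 0.50 with 2 called. Markers of other cells moved in the same libraries. Of 6 tested neutrophil markers 5 were higher (median 1.201), where 20.6% of all genes were, and the 7 on the list summed to 0.00552% to 0.00734% of the pairs unstimulated and 0.0086% to 0.0164% with LPS, with Mpo and Elane at means of 0.0955 and 0.161 CPM over 18 libraries. Of 7 tested dendritic cell markers 4 were higher and 1 lower (median 0.60), and the 8 on the list summed to 0.264% to 0.275% unstimulated and 0.239% to 0.248% with LPS, with Xcr1 at 0.093 CPM. The part of either in the LPS comparison was not tested.

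Among the nuclear members Ndufaf4, an assembly factor of complex I on chromosome 4 (24898083 to 24905001 of mm10, plus strand), showed the largest change with LPS in WT. It was at 13.9, 12.3 and 12.02 CPM in unstimulated WT cells and 5.40, 4.20 and 4.24 CPM after LPS, a fall by 1.46 on the log2 scale (SE 0.14, adjusted p = 7.52e-07). It was the only member past both the FDR and a fold change of 2, a rule that 21.3% of all tested genes met. Ndufaf7, a methyltransferase of complex I assembly, fell by 0.48 (adjusted p = 0.028), and Atp5s, a factor linked to ATP synthase on chromosome 12, fell by 0.74, from 1.67 to 1.92 CPM to 0.904 to 1.19 CPM. Uqcrh, the hinge protein of complex III, rose by 0.37, Uqcrfs1, its Rieske iron-sulfur subunit, by 0.34 and Atp5a1 by 0.22, but under scaling by library size alone these 3 changes turn to -0.01, -0.04 and -0.16. That scaling lowers the median of all genes to -0.38 in this comparison and puts the nuclear median at -0.30, which is 0.08 above all genes as in the TMM fit, with 42 nuclear members called lower and 0 higher, where 41.5% of all genes were lower and 12.2% higher. The mt- median stays above all genes by 0.58 under both, but 0 mt- members were called under library size alone, against 9 in the TMM fit.

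**Figure D3:**
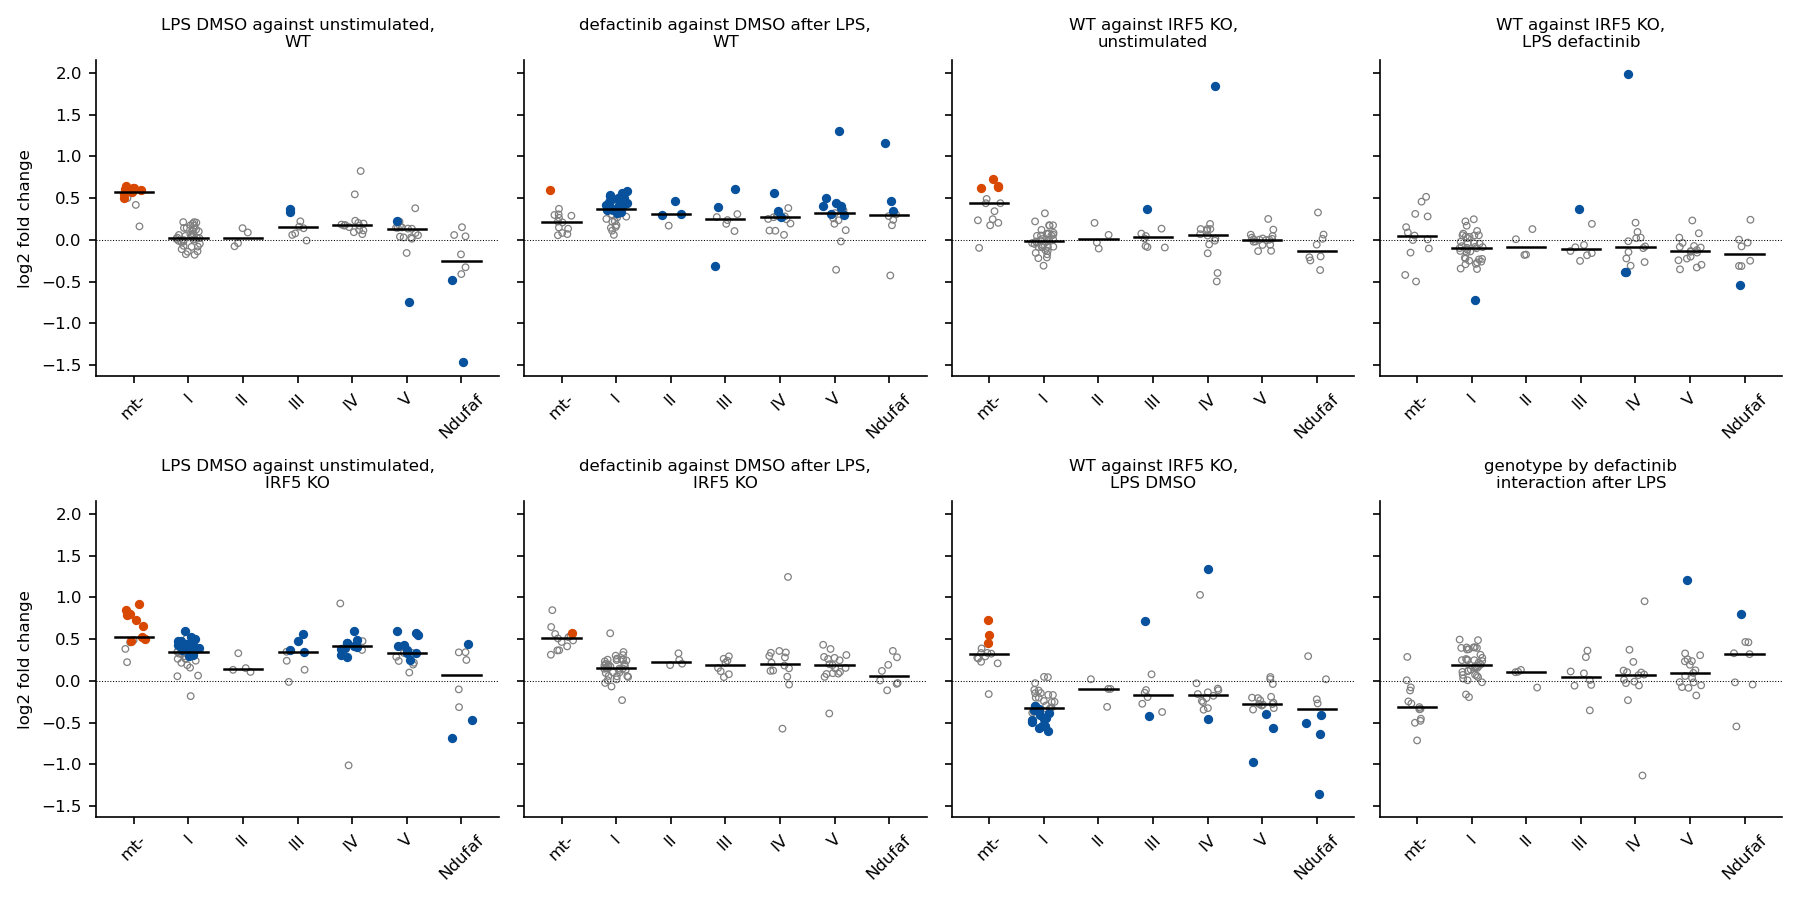
Log2 fold change of each tested member in 8 comparisons, grouped as mt- genes, nuclear subunits of complexes I to V and Ndufaf assembly factors. Filled points passed an FDR below 0.05, open points did not, and lines are medians. In WT after LPS the mt- median is 0.57 with complex I at 0.03, and with defactinib in WT complex I has a median of 0.37.

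Between the libraries labelled IRF5 KO LPS DMSO and unstimulated IRF5 KO the median log2 fold change of both kinds of gene was above 0, but the replicates differed. The nuclear members took 1.06% of the pairs in replicates 1 and 2 and 0.883% in replicate 3, against 0.919% to 0.976% unstimulated. With all libraries 9 of 13 mt- members were higher (median 0.52), and of 88 nuclear members 41 were higher and 2 lower (median 0.34), against 18.5% (higher) and 19% (lower) of all genes (median 0.01). Complex IV had 10 of 14 tested subunits higher, ATP synthase 9 of 17, complex III 4 of 8 and complex I 17 of 37, whereas no complex II gene was called and 4 of 4 had positive values with a median of 0.14. Atp5l (0.60, adjusted p = 0.014), Cox7a2l (0.60, adjusted p = 0.00836) and Ndufa7 (0.59, adjusted p = 0.0126) had the largest rises of the nuclear members called. With all libraries none of the members met the fold change of 2 that 13.3% of all genes met with the FDR. Without replicate 3 mt-Co2 (log2 1.18), mt-Nd4 (1.10), mt-Cytb (1.05) and mt-Co1 (1.03) passed both, in a fit where 28.2% of all genes were higher at the FDR alone. Atp5b, at 1121, 1005 and 1121 CPM unstimulated, was at 1611 and 1640 in replicates 1 and 2 after LPS and at 1103 in replicate 3, which lies among the unstimulated values. Without replicate 3, 73 nuclear members were higher and 3 lower (median 0.49) and 11 of 13 mt- members were higher (median 0.77), where 28.2% of all genes were higher and 30.9% lower. Without replicate 1, 2 nuclear members were higher, where 9.49% of all genes were. In a fit of only these 2 groups edgeR called no mt- member and no nuclear member (41 nuclear at an unadjusted p below 0.05), where 1.43% of all genes were higher and 0.113% lower. mt-Nd1 followed the same split, at 1017 and 1005 CPM in replicates 1 and 2 and 641 in replicate 3, against 591 to 658 unstimulated. Under library size alone the nuclear median was 0.09 with none higher and 5 lower, where 9.61% of all genes were higher and 30.8% lower, and stood 0.33 above that of all genes. Gm26917, given above, moved with the same libraries, and its part in these values was not tested. Of 6 tested neutrophil markers 3 were higher (median 0.90) and of 7 dendritic cell markers 3 were higher and 1 lower (median 0.83). The neutrophil list summed to 0.00683% to 0.00812% of the pairs unstimulated and 0.0122% to 0.0157% with LPS, and the dendritic cell list to 0.24% to 0.244% and 0.233% to 0.263%. Their part was not tested. Ndufaf4 fell by 0.47 (adjusted p = 0.0151), from 15.6 to 17.4 CPM to 11.2 to 12.6, with replicate 3 lowest, and Ndufaf1 fell by 0.68 (adjusted p = 0.0128) to 4.31 and 4.19 CPM in replicates 1 and 2 and 7.61 in replicate 3.

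Set side by side, LPS gave the nuclear members a median of 0.08 in WT and 0.34 in IRF5 KO, and the mt- members 0.57 and 0.52. The difference of the 2 medians, mt- minus nuclear, was 0.50 in WT and 0.18 in IRF5 KO, or 0.27 without replicate 3. An interaction of genotype with LPS was not tested here.

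The second comparison asks what defactinib changes in LPS-stimulated cells. It shares the LPS DMSO libraries with the LPS comparison, so the 2 are not independent. In WT 40 of 88 nuclear members (45.5%) were higher with defactinib and 1 (1.14%) lower (median 0.31), against 28.4% higher and 28.6% lower over all genes (median 0.09). Complex I gave 21 of 37, complex II 3 of 4, ATP synthase 8 of 17, Ndufaf 3 of 8, complex IV 3 of 14 and complex III 2 of 8, with positive log2 fold changes in 84 of the 88. Of 13 mt- members 1 was higher, mt-Co2 at 0.60 (adjusted p = 0.022), whose copy is complete, and the mt- median was 0.22. Without IRF5 KO LPS DMSO replicate 3, 4 of 13 mt- members (30.8%) were called higher, where 33.2% of all genes were. The mt- median minus the nuclear one was -0.09, and 0.06 without WT LPS DMSO replicate 2. Uqcr10 was at 78.3, 67.2 and 75.2 CPM in WT LPS DMSO and 105, 129 and 101 with defactinib, a rise of 0.60 (SE 0.12, adjusted p = 0.000624). Ndufa3, an accessory subunit of complex I, rose by 0.58 (adjusted p = 0.00545), from 31.7 to 37.7 CPM to 49.6 to 58.9. All 3 of its libraries with defactinib lay above the DMSO libraries. The count of nuclear members called was 20 when WT LPS defactinib replicate 2 was left out, 19 of them higher where 24.2% of all genes were, and 63 when IRF5 KO LPS DMSO replicate 3 was, a library that is not in the comparison and enters through the shared estimate of spread.

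Ndufaf4 was at 11.02, 8.64 and 11.4 CPM with defactinib against 5.40, 4.20 and 4.24 with DMSO, a log2 fold change of 1.17 (SE 0.14, adjusted p = 6.09e-06). Atp5s, at low counts, rose by 1.30 (SE 0.22, adjusted p = 0.000133), from 0.904 to 1.19 CPM to 2.52 to 2.74. These 2 were the only members past FDR and a fold change of 2, where 29.1% of all genes were. Uqcrfs1 was the only nuclear member called lower, by 0.31 (adjusted p = 0.0144), from 173, 154 and 166 CPM to 121, 147 and 130, but under scaling by library size alone its fall loses the call. That scaling puts the median of all genes at 0.29 and that of the nuclear members at 0.52 with 80 higher, where 39% of all genes were higher, 0.23 above all genes in both fits. It called 7 of 13 mt- members, against 1 in the TMM fit.

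Between the libraries labelled IRF5 KO LPS defactinib and IRF5 KO LPS DMSO there was no call among the nuclear members by edgeR or by DESeq2, with 20 of 88 at an unadjusted p below 0.05, where 1.87% of all genes were higher and 1.49% lower at FDR below 0.05, and 0.919% passed the fold change of 2 as well. The nuclear median was 0.18 and the mt- median 0.51. mt-Nd1 alone was called among the mt- members (0.57, adjusted p = 0.0489), and DESeq2 called 5. The call of mt-Nd1 was lost under 17 of the alternatives, and without replicate 3 of IRF5 KO LPS DMSO its difference was 0.38 (adjusted p = 0.0399), with 1 nuclear and 1 mt- member called higher and medians of 0.05 and 0.27, where 5.74% of all genes were higher and 2.24% lower. mt-Nd1 was at 1327, 1242 and 1388 CPM with defactinib, above all 3 DMSO libraries, by more over replicate 3 than over replicates 1 and 2. All 13 mt- members and 79 of 88 nuclear members had positive log2 fold changes. Of 9 macrophage and monocyte markers 3 were called higher (median 0.49), and 4 without replicate 3. They summed to 1.10% to 1.201% of the pairs with DMSO and 1.68% to 1.78% with defactinib, and in WT to 0.835% to 0.873% and 1.03% to 1.51%. Their part was not tested.

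**Figure D4:**
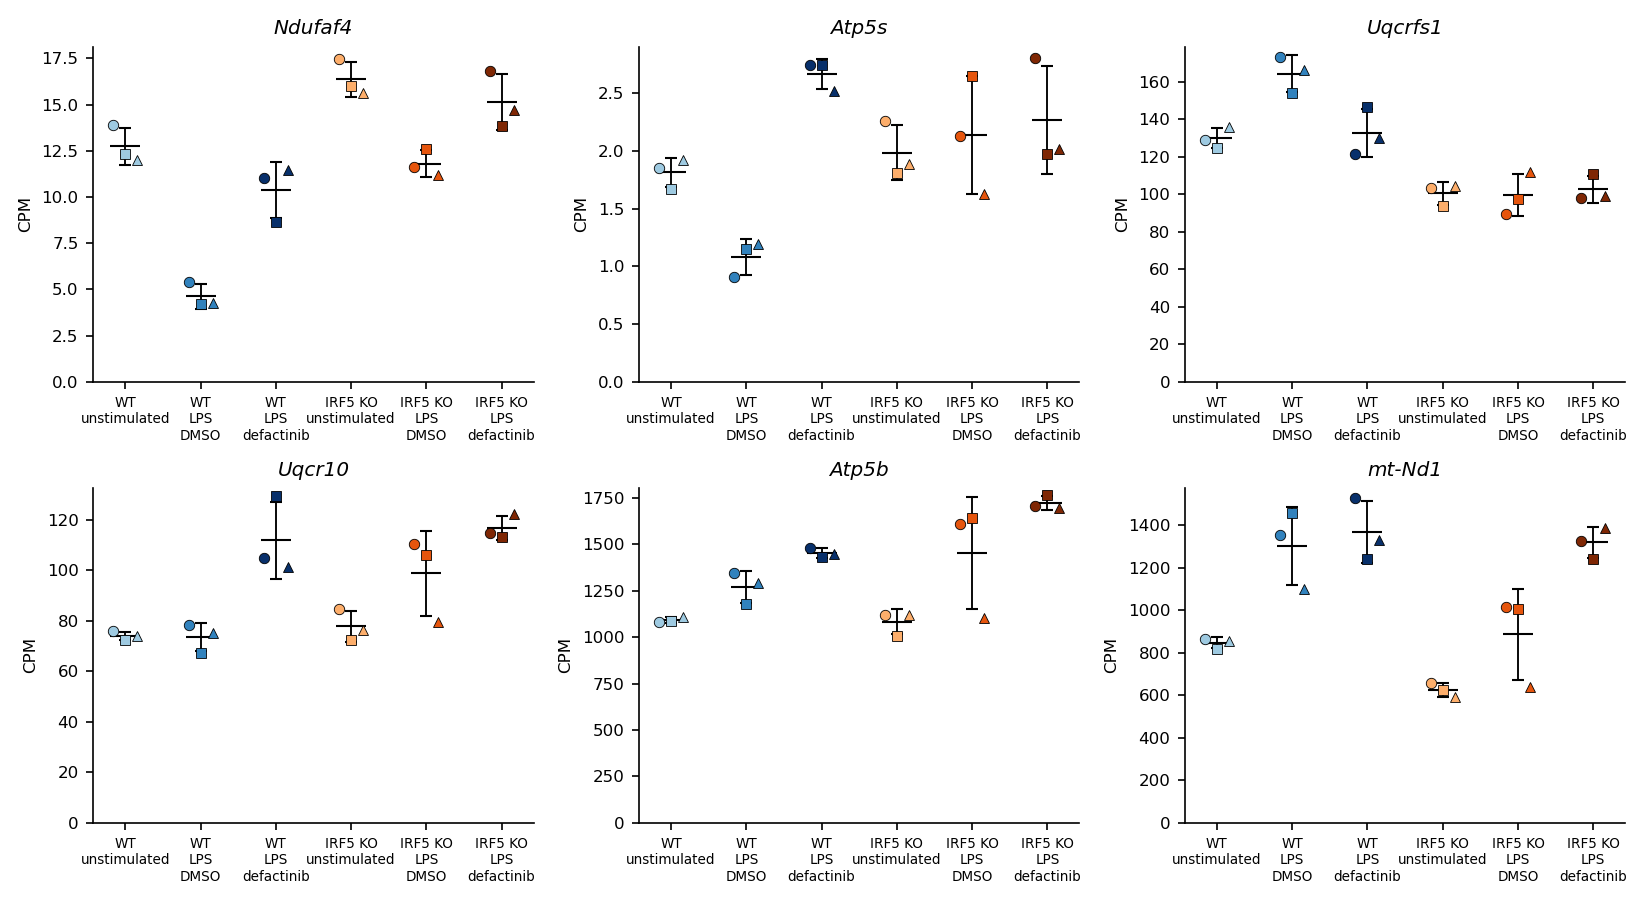
CPM of 6 members in each library of 6 groups, with mean and SD over 3 libraries, and circles, squares and triangles for replicates 1, 2 and 3. Ndufaf4 is lowest in WT LPS DMSO at 4.20 to 5.40 CPM, Uqcrfs1 is highest there at 154 to 173, and Uqcr10, Atp5b and mt-Nd1 show replicate 3 of IRF5 KO LPS DMSO below replicates 1 and 2.

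The third comparison sets WT against IRF5 KO. In unstimulated cells 4 of 13 mt- members were higher in WT and none lower, with a median of 0.44, and 2 of 88 nuclear members were higher, with a median of 0.00, where 7.93% of all genes were higher, 7.37% lower and 7.31% past the fold change of 2. Without IRF5 KO LPS DMSO replicate 3, which enters through the shared estimate of spread, 8 of 13 mt- members were called higher and 3 nuclear members higher and 2 lower, where 13.3% of all genes were higher and 12.5% lower. With a library of the comparison itself left out 0 to 3 mt- members were called, where 5.19% to 5.77% of all genes were higher. The 0 came without WT unstimulated replicate 1 or 3 and without IRF5 KO unstimulated replicate 1. The mt- members called with all libraries were mt-Co2 (0.74), mt-Co1 (0.64), mt-Nd4 (0.63) and mt-Nd6 (0.62). Their calls were lost under 5, 4, 7 and 6 of the alternatives, in this order. mt-Co1 was at 2466, 2365 and 2775 CPM in WT and 1630, 1723 and 1522 in IRF5 KO, with no overlap. The nuclear members called were Uqcrfs1, at 125 to 136 CPM in WT and 93.5 to 104 in IRF5 KO (0.37, adjusted p = 0.0171), and Cox6b2, a complex IV isoform known from testis, at 1.10 to 1.23 CPM in WT and 0.256 to 0.366 in IRF5 KO (1.85, adjusted p = 0.0166), which alone passed the fold change of 2. Under library size alone Uqcrfs1 keeps its direction at 0.26 and loses the call.

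After LPS with DMSO 3 of 13 mt- members (23.1%) were higher in WT and none lower (median 0.33), where 25.3% of all genes were higher. Of the nuclear members 25 of 88 (28.4%) were lower and 2 (2.27%) higher (median -0.27), where 26.9% of all genes were lower with a median of -0.05. mt-Nd6 was at 0.73, mt-Nd1 at 0.55 and mt-Co1 at 0.45, and without replicate 3 of IRF5 KO LPS DMSO they were at 0.79, 0.37 and 0.21, the last with no call (adjusted p = 0.11). Without that library 68 nuclear members were lower and 2 higher (median -0.40), where 32.9% of all genes were lower, and 2 mt- members were called (median 0.08). With all libraries complex I held 16 of the 25 lower calls, Ndufaf 4 and ATP synthase 3. Under library size alone the nuclear median was -0.50 with 77 lower, where 40.3% of all genes were, and the mt- median 0.09, with all genes at -0.30. Without replicate 1 of IRF5 KO LPS DMSO 9 nuclear members were lower and 3 higher, and without replicate 2 these were 11 and 2, where 21.4% and 21.5% of all genes were lower. In a fit of only the 2 groups 8 were lower and 1 higher, where 17.5% of all genes were lower. Of 88 nuclear members 11 had values above 0 and 2 were called higher in WT, Cox6a2 (1.34, adjusted p = 0.0205) and Uqcrfs1 (0.72, SE 0.10, adjusted p = 3.03e-05), the latter with 154 to 173 CPM in WT and 89.4 to 112 in IRF5 KO. Ndufaf4 was lower in WT, with a log2 difference of -1.35 (adjusted p = 2.33e-06), at 4.20 to 5.40 CPM against 11.2 to 12.6 with replicate 3 included. Atp5s was next at -0.98 (adjusted p = 0.00169). Ndufaf8 (-0.63, adjusted p = 0.0157), needed for complex I assembly, and Ndufa3 (-0.60, adjusted p = 0.00507) followed. Ndufaf4 and Cox6a2 passed the fold change of 2, a rule met by 25.8% of all genes, and Cox6a2 was at 0.0783 to 0.432 CPM in these libraries.

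After LPS with defactinib fewer members were called between genotypes. No mt- member was called by edgeR (3 at an unadjusted p below 0.05, and 2 by DESeq2), with a median of 0.05, and 2 nuclear members were higher and 4 lower, with a median of -0.10, where 18.3% (higher) and 18% (lower) of all genes were called and 17.3% passed the fold change of 2. Without IRF5 KO LPS DMSO replicate 3, 3 mt- members were called higher and 1 lower, and 5 nuclear members higher and 17 lower, where 25.4% of all genes were higher and 24.7% lower. The mt- minus nuclear difference of medians was 0.15, against 0.59 with DMSO and 0.44 unstimulated. Uqcrfs1 was higher in WT by 0.37 (adjusted p = 0.00821) and Ndufaf4 lower (-0.55, adjusted p = 0.00504), and Cox6b2 was the other member called higher (1.99, adjusted p = 0.0047), at 1.16, 2.86 and 0.899 CPM in WT and 0.239 to 0.627 in IRF5 KO. Ndufa4, a subunit of complex IV that its symbol places here with complex I, was at 40.2, 48.2 and 24.4 CPM in WT and 62.0, 57.7 and 67.0 in IRF5 KO (-0.73, adjusted p = 0.0128). Cox7c was at -0.39 (adjusted p = 0.0405), a call lost under 15 of the alternatives.

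Among markers of mast cells and basophils, 2 of 5 tested were called lower in WT than in IRF5 KO unstimulated, 3 after LPS with DMSO and 1 with defactinib, where 7.37%, 26.9% and 18% of all genes were lower. Gata2 and Kit carried the sum of the 7 genes, which came to 0.000798% to 0.00134% of the pairs in WT libraries and 0.004% to 0.00809% in IRF5 KO libraries, with Gata2 at 18.1 CPM, Kit at 11.6 and Fcer1a at 0.00716 as means over 18 libraries. Of the 9 macrophage and monocyte markers, none was higher and 3 lower in WT unstimulated, 2 higher and 4 lower after LPS with DMSO and 1 higher and 5 lower with defactinib. Their sum was 1.06% to 1.13% in WT and 1.28% to 1.71% in IRF5 KO unstimulated, 0.835% to 0.873% and 1.10% to 1.201% with DMSO, and 1.03% to 1.51% and 1.68% to 1.78% with defactinib, with no overlap of the genotypes in each treatment. The part of either in the genotype comparisons was not tested.

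The interaction asks whether the effect of defactinib after LPS differed between genotypes. By edgeR 2 of 88 nuclear members had a larger effect in WT, Ndufaf4 (0.81, SE 0.19, adjusted p = 0.00404) and Atp5s (1.21, SE 0.30, adjusted p = 0.00525), where 18.4% of all genes had a higher and 18.5% a lower effect in WT and 22.8% passed a 2-fold difference too. No mt- member was called by edgeR or DESeq2, with 2 at an unadjusted p below 0.05. The nuclear median was 0.125 and that of all genes 0.12, and the mt- median -0.31. Without IRF5 KO LPS DMSO replicate 3, 31 nuclear members had a higher and 2 a lower effect in WT and 1 mt- member a higher one, where 27.2% of all genes had a higher and 27.5% a lower effect, and under library size alone 50 had a higher one, where 34.4% of all genes had, with the median of all genes at 0.45.

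**Figure D5:**
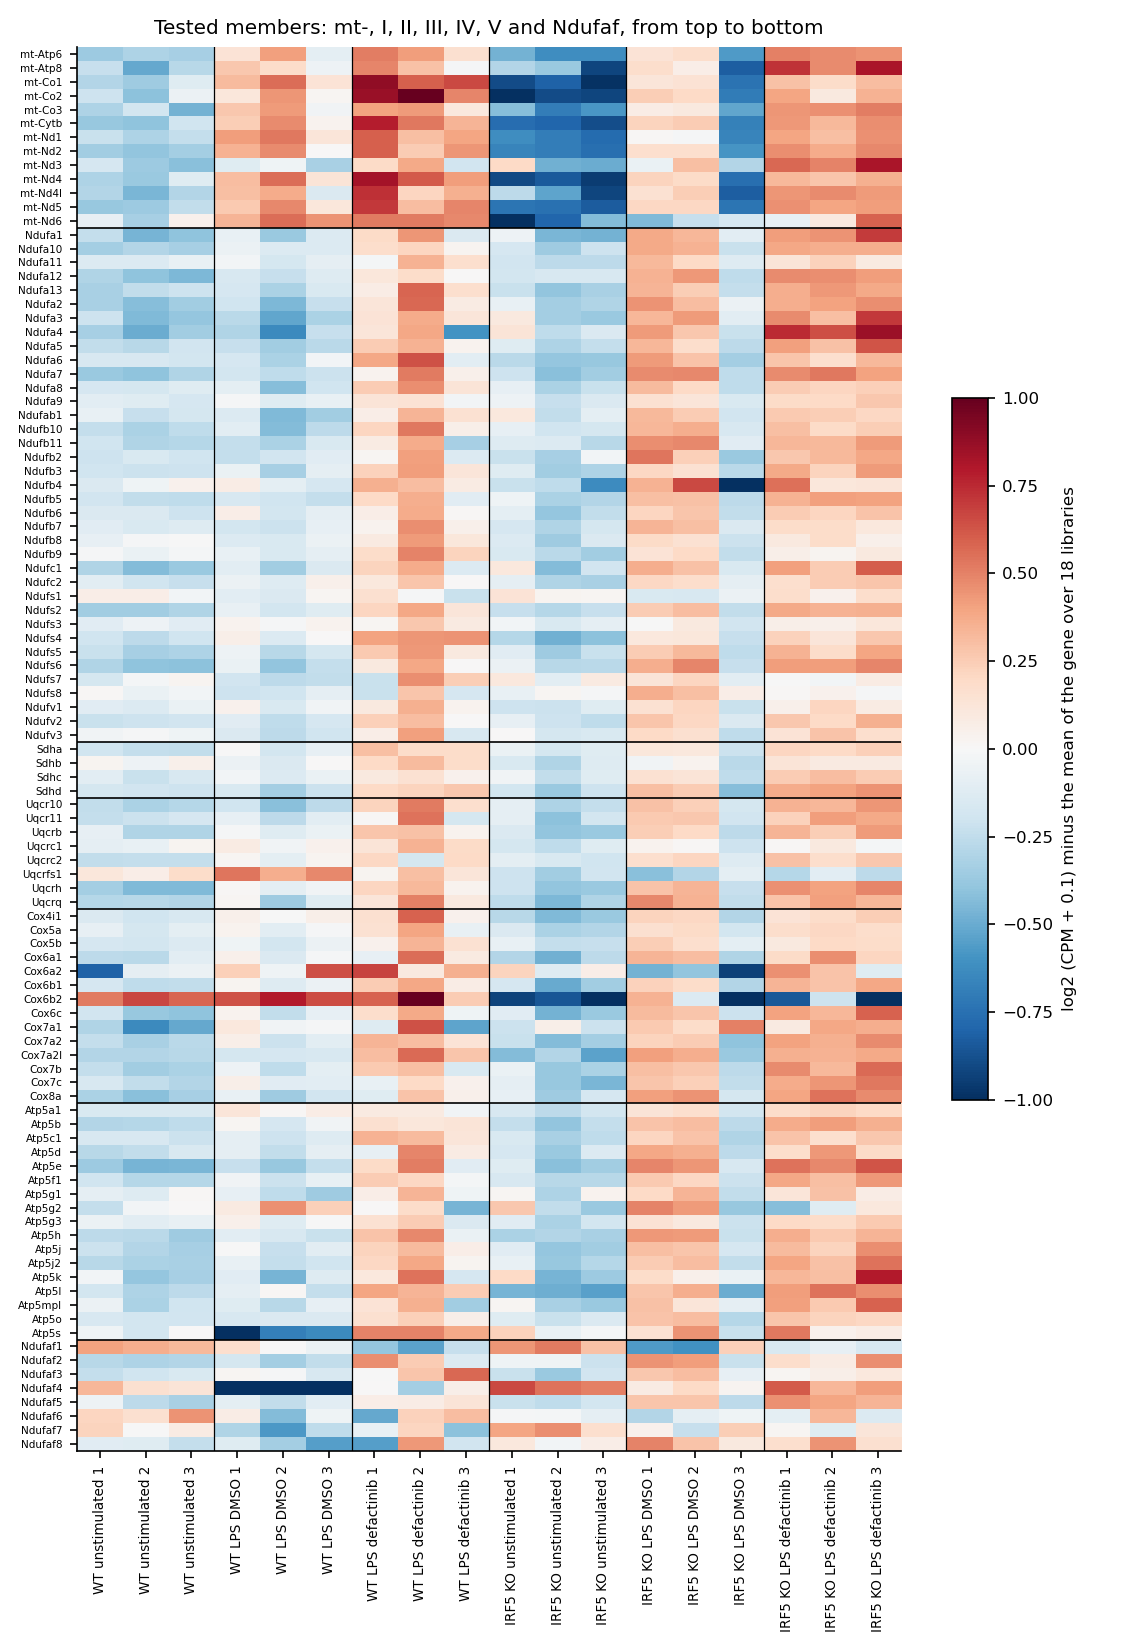
The 101 tested members in 18 libraries, as log2(CPM + 0.1) minus the mean of each gene, on a scale cut at 1 and -1, with mt- genes on top and Ndufaf factors at the bottom. mt-Co1, mt-Nd1 and mt-Cytb have their 4 lowest values in the 3 unstimulated IRF5 KO libraries and in replicate 3 of IRF5 KO LPS DMSO, and Ndufaf4, Atp5s, Uqcrfs1 and Cox6b2 stand out from their neighbours.

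Over the 6 groups Ndufaf4 was at 12.7 ± 0.997, 4.61 ± 0.683 and 10.4 ± 1.51 CPM (SD, n = 3) in WT unstimulated, LPS DMSO and LPS defactinib, and at 16.4 ± 0.947, 11.8 ± 0.741 and 15.1 ± 1.52 in IRF5 KO. WT LPS DMSO lay below each other group without overlap. The 6 calls of Ndufaf4 in WT after LPS, with defactinib in WT, between genotypes after LPS with DMSO and with defactinib, in the interaction and in IRF5 KO after LPS were kept with each alternative, except that the last was lost under 3. Uqcrfs1 differed between genotypes in all 3 treatments, at 130 ± 5.45, 164 ± 9.87 and 133 ± 12.8 CPM in WT and 100.4 ± 6.02, 99.5 ± 11.3 and 103 ± 7.20 CPM in IRF5 KO.

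Genes of the wider pathway were read from lists, each beside the share of all tested genes. Of 42 tested assembly factors outside the symbol rule, 7 (16.7%) were higher and 16 (38.1%) lower after LPS in WT, where 20.6% of all genes were higher and 21.2% lower. With defactinib in WT 25 (59.5%) were higher and 8 (19.05%) lower, against 28.4% and 28.6% of all genes. Tmem126b, a partner of Ndufaf1 in complex I assembly, went from 18.9 CPM to 4.94 with LPS and 15.6 with LPS and defactinib in WT. Between genotypes after LPS with DMSO 6 assembly factors were higher and 18 (42.9%) lower in WT, against 25.3% and 26.9% of all genes, and 9 and 23 without replicate 3 of IRF5 KO LPS DMSO, where 33.4% and 32.9% of all genes were.

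Of 77 tested mitochondrial ribosomal protein genes, 2 were higher and 18 (23.4%) lower after LPS in WT, the latter near the 21.2% of all genes. With defactinib in WT 45 (58.4%) were higher and 6 lower, where 28.4% of all genes were higher. In WT against IRF5 KO after LPS with DMSO 1 was higher and 37 (48.1%) lower, and 10 and 48 without replicate 3, where 26.9% and 32.9% of all genes were lower. Of 82 cytosolic ribosomal protein genes, 69 were higher and 2 lower after LPS in IRF5 KO (18.5% of all genes higher), and 76 and 2 without replicate 3 (28.2% of all genes). With defactinib in WT 50 were higher and 1 lower, where 28.4% of all genes were higher. The cytosolic ribosomal genes took 2.73% and 2.71% of the pairs in IRF5 KO LPS DMSO replicates 1 and 2 and 1.86% in replicate 3, the same libraries between which the nuclear members differed. Their part in the nuclear members' values was not tested.

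Genes that act on mitochondrial DNA and RNA did not move as one. Of 27 tested, 2 (7.41%) were higher and 8 (29.6%) lower after LPS in WT, against 20.6% and 21.2% of all genes. With defactinib in WT 10 (37%) were higher and 11 (40.7%) lower, against 28.4% and 28.6% of all genes. After LPS in WT Polrmt, the mitochondrial RNA polymerase, fell from 13.2 to 6.36 CPM (-1.05, adjusted p = 0.00204), Twnk, the replicative helicase, from 11.2 to 1.94, and Pnpt1, a mitochondrial exoribonuclease subunit, rose from 26.2 to 62.1. Tfam, which packages mitochondrial DNA and activates its transcription, was at 20.4 CPM unstimulated and 20.8 with LPS in WT, and fell with defactinib to 7.99 CPM (-1.38, adjusted p = 9.63e-06). Of 8 tested regulators of nuclear respiratory genes, 5 fell and 1 rose with defactinib in WT, where 28.6% of all genes were lower and 28.4% higher. Pprc1 fell from 49.0 to 6.77 CPM and Gabpb1 from 32.9 to 12.4, and Esrra rose from 31.3 to 46.4. Of 17 genes of pyruvate dehydrogenase and the citric acid cycle, 3 (17.6%) rose with LPS in WT, Cs, Dld and Dlst, below the 20.6% of all genes.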

How the data were processed

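RNA was sequenced from 18 BMDM libraries, 3 in each of 6 groups. The deposited counts are whole read pairs per gene, made by the authors with STAR alignment to mm10 and featureCounts 1.6.3 (reverse stranded, setting 2, unique pairs with a mapping quality of 255). The 39282181 to 61949143 pairs counted per library set the precision of low genes. Of 50600 gene identifiers, 50376 matched a GENCODE M21 symbol. Counts were filtered with edgeR 4.0.16 (R 4.3.3), scaled by TMM and fitted in 1 quasi-likelihood model of the 6 groups, giving 15663 tested genes. All adjusted p-values are Benjamini-Hochberg values over these genes from edgeR unless DESeq2 1.42.0 is named, and the threshold was 0.05, with a fold change of 2 as the second call. CPM values use TMM library sizes. The fits were tested on simulated data. Alternatives were other scalings, no filter, only the groups compared, a replicate block, DESeq2 and each library left out in turn. Shares of all genes beside an alternative are over the genes tested in that fit, and without IRF5 KO LPS DMSO replicate 3 over the 15661 of them that the fit of all libraries also tested.

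Members and lists were chosen with earlier results of these data known. Named were all mt- members, the highest per length in each complex, isoform pairs, and per comparison the 3 largest called rises and falls among nuclear members whose log2 CPM averaged 3 or more. Atp5s, Ndufaf1 and genes of the wider lists were named after their values were seen. The labels do not say whether replicates are separate cultures or animals, so p-values measure the spread between these libraries.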

Additional observations from a re-analysis of the deposited data

Results flagged for a closer look

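For 2 members the effect of defactinib after LPS differed between the genotypes by the interaction term of the edgeR fit. For Ndufaf4 the log2 effect in WT exceeded that in IRF5 KO by 0.81, and all 3 WT libraries with defactinib lay above all 3 with DMSO. For Atp5s the difference was 1.21, at levels of 0.904 to 2.81 CPM. No explanation was tested for either.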

How the results depend on the processing

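Of the counts of nuclear members called, scaling by library size alone gave 42 for LPS in WT, 5 for LPS in IRF5 KO, 80 for defactinib in WT, 79 for WT against IRF5 KO after LPS with DMSO and 50 for the interaction. The shares of all genes under this scaling are given with each comparison above. The same scaling turned Uqcrh to -0.0138, Uqcrfs1 to -0.0391 and Atp5a1 to -0.16 for LPS in WT, by construction of the lower median of all genes. With only the groups compared the counts were 22 for LPS in WT, 0 for LPS in IRF5 KO (41 at an unadjusted p below 0.05, edgeR), 12 for the unstimulated genotypes and 9 for the genotypes after LPS with DMSO. Beside the 12, 22.1% of all genes were higher and 21% lower, and the other shares are given above. Without the filter the counts were 25 for LPS in IRF5 KO and 1 for the unstimulated genotypes, where 8.62% and 3.72% of all genes were higher and 8.69% and 3.8% lower. The cause of these shifts was not tested.

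With 1 library left out the counts ranged from 1 (without WT LPS DMSO replicate 1) to 13 for LPS in WT, from 2 (without IRF5 KO LPS DMSO replicate 1) to 76 for LPS in IRF5 KO, from 20 (without WT LPS defactinib replicate 2) to 63 for defactinib in WT, from 0 to 1 for defactinib in IRF5 KO, from 1 to 5 for the unstimulated genotypes, from 11 (without WT LPS DMSO replicate 2) to 70 for the genotypes after LPS with DMSO, from 3 to 22 with defactinib, and from 2 to 33 for the interaction. Each upper end is the value without IRF5 KO LPS DMSO replicate 3, for which shares of all genes are given with each comparison above. At the lower ends with a named library 17.9%, 9.49%, 24.2% and 21.1% of all genes were higher, in the order given. The shares lower were 17.7%, 6.19%, 25.3% and 22.5%. The mt- minus nuclear median ranged from -0.24 to 0.0628 for defactinib in WT and from -0.56 to -0.28 for the interaction. The ratio of WT to IRF5 KO with defactinib was 0.20 (log2) over the mt- members under 10% copied other than mt-Atp8, an alternative chosen after seeing the data.

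Same-numbered libraries were not treated as paired in the main fit. The median correlation of their deviations from the group means was 0.00455 over 45 pairs (-0.105 to 0.278, with 4 above 0.1). It cannot show whether they share an animal or a batch. The replicate block gave nuclear counts of 5, 45, 42, 0, 2, 26, 5 and 2 in the order LPS in WT and in IRF5 KO, defactinib in WT and in IRF5 KO, genotypes unstimulated, with LPS and with defactinib, and interaction. In the same order 20.5%, 18%, 27.9%, 1.33%, 7.79%, 25.9%, 17.7% and 17.7% of all genes were higher. The shares lower were 21.2%, 20.4%, 28.9%, 0.664%, 7.14%, 26.2%, 18.3% and 19.4%. Of 50 pairs of a named gene and a comparison, 11 kept the call under every alternative run and 3 changed sign. The calls of mt-Co1 between genotypes after LPS with DMSO, mt-Nd1 with defactinib in IRF5 KO and Atp5a1 with LPS in WT were each lost under 17 alternatives. Depth limits members near 1 CPM.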
